A study of Homo sapiens with 36 samples.

Results

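RNA bound by endogenous YTHDF3 was set against total RNA in HEK293T, a line of human embryonic kidney origin, carrying a YTHDF1-ADAR fusion. The comparison holds 6 of the 36 RNA sequencing libraries of the series: 3 libraries of RNA immunoprecipitation (RIP) with an antibody to YTHDF3 and 3 input libraries from a fraction of the lysates of the same line. The libraries of each group were taken by their labels, not by their values. All 36 libraries, inputs included, came from HEK293T cells treated with doxycycline at 1 µg/mL for 24 h, which switched on the fusion protein. The other groups were YTHDF1 RIP and YTHDF2 RIP from the YTHDF1-ADAR line, and input and the 3 RIPs from lines that expressed YTHDF2-ADAR or YTHDF3-ADAR. Thus every input and every RIP library came from cells that also held a fusion protein. An untransfected line and a RIP with a control antibody were not analysed here. The labels do not say whether the replicates came from separate cultures or whether a line was a single clone, and p-values cover only differences among these libraries, which may be technical.

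YTHDF1, YTHDF2 and YTHDF3 are cytoplasmic proteins that bind N6-methyladenosine (m6A), a methyl mark placed on mRNA by a nuclear writer complex around METTL3 and METTL14 and removed by FTO and ALKBH5. The mark lies mostly in long internal exons and near stop codons, and mRNAs that carry it and are bound by YTHDF proteins are known to be deadenylated by CCR4-NOT and degraded. ADAR enzymes turn adenosine into inosine, read as guanosine in sequencing. A YTHDF-ADAR fusion therefore leaves edited sites on RNAs it has met, a method called TRIBE, and a RIP from the same cells shows which of the RNAs are held by a chosen protein.

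Library totals were 28.4 to 37.5 M counts in YTHDF3 RIP and 20.7 to 30.3 M in input, within 12.5 to 37.5 M over the series. Protein-coding genes took 90.4 to 91.2% of counts in RIP and 71.5 to 72.4% in input. Input replicate 1 stood apart from the other inputs: the 7SL RNA genes and their copies took 4.31% of its counts, against 11.5% in each of inputs 2 and 3, and the pair of MIR3648 genes took 5.63%, against 0.107% in input 2 and 0.304% in input 3. Olfactory receptor genes, which these cells are not known to use, summed to 13.9 CPM (counts scaled to one common library total) in input replicate 1, against 4.29 and 4.72 CPM in the other inputs and 6.78 to 9.10 CPM in RIP. The Pearson correlation of log2 CPM across genes was 0.965 and 0.964 for input 1 with inputs 2 and 3, against 0.986 between inputs 2 and 3 and 0.984 to 0.991 between RIP replicates. Their part in the results below was not tested, and the counts of the whole comparison and of most lists are given with and without input replicate 1. The gene for the fusion partner matched the line: YTHDF1 had 529, 721 and 652 CPM in YTHDF1-ADAR inputs, against 85.6 to 98.5 CPM in the inputs of the other lines.

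The YTHDF3 RIP held most mRNAs of chromatin coregulators at higher shares than input, as well as 17 of 33 mRNAs of Wnt receptors and effectors and 133 of 453 of ZNF zinc finger proteins. It held most mRNAs of ribosomal, oxidative phosphorylation, proteasomal and histone proteins and structured noncoding RNAs at lower shares. By edgeR's quasi-likelihood test on counts scaled by TMM (library factors from a trimmed mean of gene ratios), 3647 of 31849 genes tested (11.5%) were called higher in RIP and 6402 (20.1%) lower, at an adjusted p under 0.05. The other 28826 genes of the table had too few counts to be tested. The called higher genes had a median log2 fold change of 0.71 and the called lower genes one of -1.19, so that 618 genes (1.94%) were higher by at least 2-fold and 3902 (12.3%) lower by at least 2-fold. Values of the 3 RIP libraries and the 3 inputs did not overlap for 4814 genes that were higher in RIP (15.1%) and 7569 that were lower (23.8%).

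Without input replicate 1, 3831 genes (11.6% of 32958) were called higher and 5764 (17.5%) lower. Of the genes called with all libraries, 3083 of the higher (84.5%) and 5433 of the lower (84.9%) were called the same way, and 0 the other way. The split moved between settings, and why it moved was not tested. Over all genes the median log2 fold change was -0.23 under TMM and -0.12 under DESeq2's size factors. It was 0.04 under total counts and 0.05 without input replicate 1. Higher genes made up 36.3% of calls under TMM, 46.1% under DESeq2, 60.0% under total counts, 58.1% when only the 6 libraries were fitted and 39.9% without input replicate 1. Leaving out RIP replicate 2 moved the counts to 5673 higher and 3802 lower. Under each of 13 alternative settings, 2583 of the higher genes (70.8%) and 2948 of the lower genes (46.0%) kept their call. In any of them, 0 were called the other way. Genes that a setting did not test count as not kept. The setting with a mean of at least 1 CPM tested the fewest, 19600 genes. Values below are log2 fold changes of RIP over input with the standard error (SE), adjusted p-values are edgeR's with Benjamini-Hochberg adjustment over all genes tested, and levels are TMM-scaled CPM in replicates 1, 2 and 3.

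Among well-measured genes with non-overlapping groups and a call that held without input replicate 1, the homeobox gene SIX2, a regulator of kidney progenitor cells, had the highest fold change. SIX2 (chromosome 2, 45005182 to 45009452, GRCh38) had 99.2, 74.1 and 65.9 CPM in RIP, against 16.97, 20.8 and 23.4 CPM in input. Its lowest RIP library lay above its highest input, and the log2 fold change was 1.97 ± 0.20 (edgeR adjusted p = 1.4e-09) and 1.88 without input replicate 1. CDK12, a kinase that phosphorylates RNA polymerase II during elongation (chromosome 17, 39461486 to 39564907), had 616, 510.1 and 381 CPM in RIP, against 139, 181 and 126 CPM in input. The groups stood apart by more than the spread within either, with a log2 fold change of 1.76 ± 0.22 (edgeR adjusted p = 4.4e-08). UCP2, a carrier of the mitochondrial inner membrane (chromosome 11, 73974672 to 73982843), had 181, 178 and 163 CPM in RIP, against 44.96, 61.2 and 64.1 CPM in input. All UCP2 values in RIP were above all input values, at a log2 fold change of 1.62 ± 0.20 (edgeR adjusted p = 4.2e-08). PARP11, an ADP-ribosyltransferase, had 42.8, 30.4 and 43.5 CPM in RIP, against 9.36, 11.5 and 13.7 CPM in input, and CCDC97, a coiled-coil protein, had 169, 149 and 131 CPM in RIP, against 44.8, 44.5 and 47.1 CPM in input, again with no overlap. Their log2 fold changes were 1.75 ± 0.21 and 1.72 ± 0.15. The others of the 10 highest were USB1 at 1.78 ± 0.23, C9orf43 at 1.66 ± 0.29, the kinase gene SBK1 at 1.57 ± 0.18, the myeloid-associated membrane gene MYADM at 1.54 ± 0.19 and DUSP7, a MAP kinase phosphatase, at 1.52 ± 0.19. Counting used no strand, so reads of overlapping genes cannot be told apart. USB1 overlaps ZNF319, C9orf43 overlaps POLE3, and CCDC97 and MYADM overlap genes without a symbol, all on the opposite strand. SBK1 overlaps a gene without a symbol on its own strand. The same limit holds for other genes named below, among them METTL3 (TOX4), WTAP (SOD2), RBM15B (DCAF1), BAD (GPR137), G3BP1 (ATOX1) and RPS28 (NDUFA7).

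**Figure D1:**
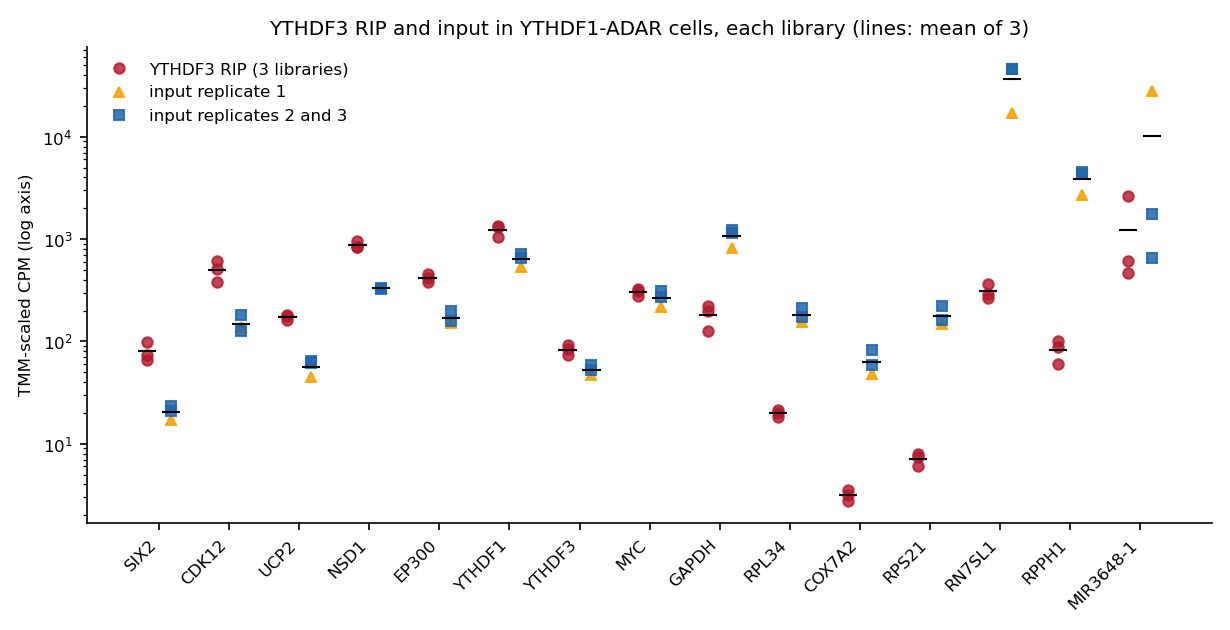
TMM-scaled CPM (log axis) of 15 genes in each of the 6 libraries of YTHDF1-ADAR cells, with YTHDF3 RIP left and input right of each gene and a line at the mean of 3 libraries. SIX2, CDK12, UCP2, NSD1, EP300, YTHDF1 and YTHDF3 lie higher in all RIP libraries, GAPDH, RPL34, COX7A2, RPS21, RN7SL1 and RPPH1 lie lower in all of them, MYC overlaps, and MIR3648-1 is set apart by input replicate 1 alone.

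Of 12 genes for readers of m6A tested, 6 were called higher and 2 lower, with a median of 0.37 (0.34 without input replicate 1, again 6 and 2), against 11.5% and 20.1% of all genes. YTHDF3, the target of the antibody, had 83.9, 74.2 and 91.6 CPM in RIP, against 47.2, 59.1 and 52.04 CPM in input. Its RIP values all lay above the inputs, with a log2 fold change of 0.66 ± 0.17 (edgeR adjusted p = 0.0021). YTHDF1 had 1352, 1306 and 1055 CPM in RIP, against 529, 721 and 652 CPM in input, without overlap, at 0.97 ± 0.19 (edgeR adjusted p = 7.9e-05), and 0.88 without input replicate 1. Reads of the fusion and of the endogenous gene cannot be told apart in these counts. The labels do not say which ADAR gene the fusion carries. ADARB1 had 1024, 1054 and 942 CPM in RIP, against 474, 546 and 542 CPM in input. The inputs of the other lines held 55.9 to 59.8 CPM of ADARB1 in YTHDF2-ADAR cells, the lowest, and 2039 to 2152 CPM in YTHDF3-ADAR cells, so these counts do not show an ADARB1 fusion transcript in the YTHDF2-ADAR line. In YTHDF1-ADAR cells ADAR had 788, 722 and 738 CPM in RIP, against 295, 378 and 358 CPM in input. Neither gene overlapped between RIP and input, and the log2 fold changes were 0.95 ± 0.19 and 1.12 ± 0.16. YTHDF2 had 188, 164 and 181 CPM in RIP, against 131, 176 and 155 CPM in input, with overlapping groups and a log2 fold change of 0.21 ± 0.18 (edgeR adjusted p = 0.41). PRRC2A, a cytoplasmic protein described as a reader, was at 1.00 ± 0.19. The mRNA-stabilising IGF2BP1 was at 0.88 ± 0.17 and the helicase reader YTHDC2 at 0.63 ± 0.16, while the nuclear YTHDC1 was at 0.07 ± 0.21 and not called. The lower readers were the nuclear proteins HNRNPA2B1 at -1.01 ± 0.22 and HNRNPC at -0.65 ± 0.18.

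Writers were called higher in 4 of 9 cases and lower in 0, with a median of 0.42, and 2 of the 4 were still called without input replicate 1. VIRMA, the scaffold of the writer complex, had 111, 97.1 and 124 CPM in RIP, against 48.9, 67.2 and 69.5 CPM in input, which did not overlap, and a log2 fold change of 0.84 ± 0.18 (edgeR adjusted p = 4.1e-04). RBM15B, an adaptor that brings the complex to RNA, was at 0.62 ± 0.18, METTL16, a separate methyltransferase, at 0.47 ± 0.16, and METTL14 at 0.42 ± 0.14 (edgeR adjusted p = 0.022). The catalytic METTL3 had 69.8, 68.5 and 71.4 CPM in RIP, against 78.2, 84.9 and 77.8 CPM in input. Its RIP values lay below its inputs by little, at -0.20 ± 0.14 (edgeR adjusted p = 0.32), and the sign turned under total counts among other settings. WTAP was at -0.09 ± 0.13, and its sign turned under DESeq2 and total counts among other settings. Neither eraser was called: FTO was at -0.25 ± 0.12, with a turn of sign under total counts and without RIP replicate 2, and ALKBH5 at 0.0016 ± 0.19, below 0 under the replicate block and without input replicate 1 or RIP replicate 1. At an unadjusted p under 0.05, 0 writers and 1 eraser were lower, and by DESeq2 0 of either.

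Chromatin coregulators, the enzymes and scaffolds that open, close or mark chromatin, were the list with the largest share of higher genes. Of 61 tested, 52 were called higher and 2 lower, at a median of 0.78 against -0.23 over all genes. The counts were 49 and 2 without input replicate 1, at a median of 0.80, and 46 of the 52 were called in every alternative setting. NSD1, a methyltransferase of histone H3 lysine 36, had 956, 834 and 836 CPM in RIP, against 331, 333 and 327 CPM in input. Its inputs differed by less than its RIP libraries did, and the groups lay far apart, with a log2 fold change of 1.41 ± 0.15 (edgeR adjusted p = 2.7e-09). EP300, an acetyltransferase, had 421, 453 and 381 CPM in RIP, against 150.2, 199 and 159 CPM in input, without overlap, at 1.30 ± 0.18 (edgeR adjusted p = 4.7e-07), and its partner CREBBP had 339.6, 338 and 327 CPM in RIP, against 153, 189 and 159 CPM in input, at 1.00 ± 0.18. SETD5 had 542, 515 and 439 CPM in RIP, against 197, 220.4 and 181 CPM in input, at 1.32 ± 0.15. KMT2C, a methyltransferase of enhancer histones, had 528, 512 and 499 CPM in RIP, against 252, 248 and 224 CPM in input, at 1.09 ± 0.14, and the chromatin remodeller CHD8 was at 1.22 ± 0.18. The 2 that were lower were EED of Polycomb at -0.58 ± 0.16 and SMARCB1 of the SWI/SNF remodeller at -0.66 ± 0.17.

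Zinc finger genes of the ZNF series, mostly DNA-binding repressors, gave 133 higher (29.4%) and 45 lower (9.93%) of 453 tested, at a median of 0.20 (117 and 36 without input replicate 1, median 0.22). ZNF318 had 166, 160.4 and 156 CPM in RIP, against 68.9, 76.4 and 71.6 CPM in input, without overlap, at 1.15 ± 0.15. ZNF704 was at 0.99 ± 0.13 and ZNF426 at 0.96 ± 0.13, while ZNF90 was at -3.44 ± 0.68. ZNF genes come in families of near-identical copies, and reads that map to several places were counted in each, so single members are uncertain. Among SOX and KLF factors, 7 of 30 (23.3%) were higher and 4 (13.3%) lower, against 18.2% and 26.2% of protein-coding genes. Their median was 0.21, and without input replicate 1 they gave 8 and 3 at 0.18. SOX13 was at 0.97 ± 0.16, KLF13 at 0.96 ± 0.15 and KLF7 at 0.85 ± 0.16, and KLF2, a factor of vessel lining cells, was at -1.33 ± 0.34. Levels of KLF2 were low, with 0.73, 0.51 and 0.80 CPM in RIP, against 1.65, 1.36 and 2.15 CPM in input. It was not called in YTHDF2-ADAR cells (-0.26) or YTHDF3-ADAR cells (0.18).

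Wnt signalling acts through β-catenin on TCF and LEF factors. Its receptors and effectors gave 17 higher (51.5%) and 2 lower (6.06%) of 33, against 18.2% and 26.2% of protein-coding genes. The median was 0.44, and 15 and 2 were called without input replicate 1. At the receptor level, the Frizzled gene FZD1 had 86.6, 76.5 and 61.7 CPM in RIP, against 39.9, 39.5 and 40.1 CPM in input, and the R-spondin receptor LGR4 had 56.5, 53.7 and 59.2 CPM in RIP, against 31.1, 38.2 and 35.04 CPM in input. Both were higher in every RIP library, at 0.91 ± 0.16 and 0.70 ± 0.13. The related receptor LGR5 was at 0.92 ± 0.22. Inside the cell, the scaffold of the destruction complex APC was at 0.80 ± 0.21, and LEF1, the nuclear end of the pathway, had 77.02, 73.2 and 88.5 CPM in RIP, against 40.5, 46.8 and 39.7 CPM in input, at 0.91 ± 0.12 (edgeR adjusted p = 2.2e-07). The lower members were DVL2 at -0.56 ± 0.12 and the kinase GSK3A at -0.51 ± 0.16.

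Of 24 mRNAs widely described as m6A-modified, 12 were called higher and 2 lower, against 18.2% and 26.2% of protein-coding genes. The median was 0.46, and 8 and 1 were called without input replicate 1. EP300 and CREBBP of this list are given above with the coregulators, and BCL2 and MCL1 are counted again in the BCL2 family. These lists are thus not separate evidence. SON, a splicing factor of nuclear speckles, had 1341, 1259 and 1131 CPM in RIP, against 568, 666 and 543 CPM in input, at 1.07 ± 0.21 (edgeR adjusted p = 8.0e-05); every RIP value was far above every input. SETD1B was at 1.00 ± 0.18, BCL2 at 0.62 ± 0.13 and MCL1 at 0.84 ± 0.18, while CITED2 was at -0.63 ± 0.16. MYC had 322, 311 and 276 CPM in RIP, against 217, 313 and 272 CPM in input, which overlapped, at 0.18 ± 0.17 (edgeR adjusted p = 0.48). All 8 mRNAs used as low-m6A controls were called lower, at a median of -2.68, with and without input replicate 1. GAPDH, a glycolytic enzyme, had 197, 221 and 128 CPM in RIP, against 826, 1152 and 1213 CPM in input, far below without overlap, at -2.55 ± 0.27. HPRT1, an enzyme of purine salvage, had 29.2, 26.1 and 17.3 CPM in RIP, against 68.3, 101 and 100.4 CPM in input, at -1.89 ± 0.21, and RPL30 of the ribosome had 22.3, 19.7 and 18.8 CPM in RIP, against 92.00, 145 and 196 CPM in input, at -2.83 ± 0.22. Of these 8, 4 encode ribosomal proteins and are counted again in that list.

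Immediate-early genes, which growth factors switch on within minutes and whose mRNAs decay fast, were mostly not called: 2 of 33 were higher and 3 lower (3 and 4 without input replicate 1). Their median of -0.05 turned to 0.06 under DESeq2 and 0.25 under total counts. FOSL2 was at 0.62 ± 0.17, and the lower members were the low-count KLF2, IER3 at -0.69 ± 0.23 and BTG1 at -0.59 ± 0.14.

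Genes of mRNA decay are those to which YTHDF proteins hand their targets. For CCR4-NOT, 2 of 16 genes (12.5%) were higher and 5 (31.3%) lower, near the shares of all protein-coding genes (18.2% and 26.2%), and the median of -0.04 was 0.07 under DESeq2 and 0.25 under total counts. CNOT1, the scaffold to which YTHDF2 is known to bind, was at 1.10 ± 0.16 and the nuclease CNOT6L, which was not called without input replicate 1, at 0.44 ± 0.17, while the nuclease CNOT7 had 41.97, 39.04 and 40.4 CPM in RIP, against 60.8, 84.5 and 83.5 CPM in input, at -0.91 ± 0.15, and the adaptor BTG3 was at -1.36 ± 0.17. Among decapping, P-body and silencing genes, 10 of 26 (38.5%) were higher and 8 (30.8%) lower, at a median of 0.16 (9 and 8 without input replicate 1, median 0.13). The higher ones included the Argonaute AGO2 at 0.89 ± 0.12 and its partners TNRC6A at 1.00 ± 0.17 and TNRC6B at 0.84 ± 0.13, and the lower ones included the small LSM2 at -3.09 ± 0.24, LSM4 at -1.81 ± 0.18 and LSM1 at -1.72 ± 0.16, which form the ring that binds mRNA tails. Stress granule genes gave 4 higher (21.1%) and 2 lower (10.5%) of 19, at a median of 0.13, but 2 and 2 at 0.010 without input replicate 1. CAPRIN1 was at 0.80 ± 0.19 and G3BP1 at 0.51 ± 0.20 (edgeR adjusted p = 0.043; 0.16 without input replicate 1), against FXR1 at -0.81 ± 0.17. Heat shock chaperones gave 5 higher (17.2%) and 7 lower (24.1%) of 29, near the shares of all protein-coding genes, at a median of 0.19. Without input replicate 1 they gave 2 and 9 at 0.075. HSP90AB1 had 3019.7, 2526 and 1913 CPM in RIP, against 1071, 1530.3 and 1367 CPM in input, in which input did not reach the lowest RIP value, at 0.91 ± 0.31 (edgeR adjusted p = 0.021; 0.087 without input replicate 1), and the small mitochondrial HSPE1 was at -2.96 ± 0.34.

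In the BCL2 family 3 of 17 (17.6%) were higher and 9 (52.9%) lower, against 18.2% and 26.2% of protein-coding genes. The median was -0.51, and -0.29 without input replicate 1. The 3 were the survival genes BCL2 and MCL1 and the death activator BCL2L11 at 0.40 ± 0.12, and the 9 held the death-promoting genes BAX at -1.31 ± 0.20 and BAD, which had 3.64, 4.29 and 2.77 CPM in RIP, against 17.02, 13.4 and 19.3 CPM in input without overlap, at -2.22 ± 0.19. S phase genes gave 5 higher (16.1%) and 14 lower (45.2%) of 31, at a median of -0.37 (5 and 15 without input replicate 1, median -0.42): MCM10 was at 1.15 ± 0.18 and the polymerase POLE at 0.72 ± 0.13, against the clamp loader RFC2 at -1.47 ± 0.14 and GINS2 at -1.41 ± 0.15. G2/M genes gave 6 higher and 9 lower of 25, at a median of 0.17 (5 and 9 without input replicate 1, median 0.11). MKI67, the proliferation antigen, had 652, 698 and 802 CPM in RIP, against 347, 316 and 331 CPM in input, without overlap, at 1.11 ± 0.23, KIF11 was at 0.85 ± 0.17, and the ubiquitin ligase partners UBE2C and CDC20 were at -1.16 ± 0.19 and -0.93 ± 0.25.

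Ribosomal protein genes were lower. Of 86 cytosolic ribosomal protein genes tested, 0 were called higher and 78 lower, at a median of -2.40 (0 and 78 without input replicate 1, median -2.43). The list summed to 9963 to 12277 CPM in RIP against 28429 to 43342 CPM in input. Ribosomal protein mRNAs are known for a pyrimidine tract at their start, through which growth signals set their translation, so 4 annotated starts are given beside those of 2 chromatin genes. Each line gives 15 bases before and 15 bases from the annotated start on, 5′ to 3′ on the gene's strand, from RefSeq's GRCh38.p14 promoters. Capitals mark any CTTTT, the same run ending in a different base, CTTTC, and the run with fewer T, CTTCC, overlaps merged.
RPS21, chr20:62387088-62387117, plus strand: ggtgactagctgCTTCCTTTCtctctcgcg
RPL34, chr4:108620561-108620590, plus strand: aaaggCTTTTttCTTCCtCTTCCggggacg
RPS14, chr5:150449725-150449754, minus strand: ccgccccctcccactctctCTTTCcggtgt
RPS28, chr19:8321481-8321510, plus strand: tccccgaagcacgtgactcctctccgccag
EP300, chr22:41092577-41092606, plus strand: cctccttgtggcgatgagaaggaggaggac
NSD1, chr5:177131783-177131812, plus strand: gagggcggtgccctcagcttgagatggagt
At least 1 of the 3 letter runs stood on the gene's strand in 48 of 68 ribosomal protein starts matched by symbol (70.6%; 5.88% on the other strand), against 14.2% of 27305 starts in the table (11.95% on the other strand). Over protein-coding genes the share was 13.2% in those called higher, 17.2% in those called lower and 14.1% in those not called, and 16.2% in the lower genes without ribosomal proteins.

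RPS21, the lowest of the ribosomal list (chromosome 20, 62387103 to 62388520), had 7.90, 7.41 and 6.10 CPM in RIP, against 149, 162 and 222 CPM in input. Its highest RIP value lay far below its lowest input, and the log2 fold change was -4.64 ± 0.26 (edgeR adjusted p = 4.9e-15). RPL34 had 19.7, 18.4 and 21.3 CPM in RIP, against 156, 175 and 211 CPM in input at -3.19 ± 0.19, RPS14 had 92.2, 83.7 and 60.4 CPM in RIP, against 499, 495 and 675 CPM in input at -2.82 ± 0.28, and RPS28, whose start holds none of the runs, had 24.3, 27.02 and 15.4 CPM in RIP, against 189.5, 219 and 281 CPM in input at -3.37 ± 0.27. None of these overlapped between RIP and input. The RPS28 start does hold another stretch of C and T that the runs do not cover, so a missing run is not a missing tract. RPS24 at 0.34 ± 0.32 was the highest of the 86 and was not called. Translation initiation factors gave 10 higher (18.5%) and 22 lower (40.7%) of 54, against 18.2% and 26.2% of protein-coding genes (7 and 22 without input replicate 1, median -0.18). Their median of -0.09 with all libraries had the opposite sign under other scalings, up to 0.20. The sensor kinase EIF2AK4 was at 1.12 ± 0.14 and the scaffold EIF4G1 at 1.02 ± 0.22, while the cap-binding EIF4E had 25.3, 25.9 and 25.7 CPM in RIP, against 72.1, 97.2 and 81.8 CPM in input, at -1.71 ± 0.16, and EIF3I and EIF6 were at -1.90 ± 0.18 and -2.32 ± 0.21.

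Nuclear genes of mitochondria were lower as well. Of 78 mitochondrial ribosomal proteins, 0 were higher and 71 lower at a median of -1.38 (0 and 71 without input replicate 1, median -1.45), among them MRPS17 at -2.38 ± 0.19, MRPL13 at -2.07 ± 0.18 and MRPL52 at -2.05 ± 0.16. Of 81 nuclear genes of oxidative phosphorylation, 0 were higher and 75 lower at a median of -2.04 (76 lower and -2.17 without input replicate 1). COX7A2, a small subunit of cytochrome c oxidase, had 3.13, 3.51 and 2.74 CPM in RIP, against 47.9, 59.1 and 82.4 CPM in input, with no overlap, at -4.33 ± 0.22 (edgeR adjusted p = 2.9e-16), COX5B was at -3.85 ± 0.22, and the ATP synthase subunit ATP5F1E had 5.25, 4.52 and 4.17 CPM in RIP, against 36.5, 49.04 and 53.2 CPM in input, at -3.31 ± 0.19. The 13 mRNAs made inside mitochondria spread more: 0 were higher and 2 lower at a median of -0.49, and 3 were lower at -0.84 without input replicate 1. MT-CO3 had 377, 558 and 449 CPM in RIP, against 620.1, 2112 and 1678 CPM in input, where input replicate 1 lay near the RIP values and the other inputs far above, at -1.67 ± 0.42 and -2.01 without that input.

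Proteasome genes gave 29 lower and 3 higher of 44, at a median of -0.91: the core subunits PSMB3, PSMB4 and PSMB7 were at -3.43 ± 0.28, -2.19 ± 0.17 and -1.80 ± 0.15, and the higher ones were PSMD11 at 1.45 ± 0.20, the large activator PSME4 at 0.93 ± 0.18 and PSMD2 at 0.55 ± 0.20. Without input replicate 1 they gave 30 lower and 2 higher. Genes of protein entry into the endoplasmic reticulum gave 22 lower and 2 higher of 42, at a median of -0.63 (23 and 1 without input replicate 1, median -0.79). The channel subunit SEC61G had 2.47, 2.26 and 1.43 CPM in RIP, against 25.2, 35.3 and 42.9 CPM in input, without overlap, at -4.06 ± 0.28, and OST4 and SSR4 were at -3.34 ± 0.23 and -2.61 ± 0.19. Of 56 replication-dependent histone genes, whose mRNAs end in a stem-loop in place of a poly(A) tail, 0 were higher and 46 lower, at a median of -2.25 and 42 lower in every alternative setting. H2AC20 had 20.6, 21.5 and 12.2 CPM in RIP, against 173, 276 and 281 CPM in input, without overlap, at -3.75 ± 0.30, and H2BC11 and H3C7 were at -3.57 ± 0.37 and -3.62 ± 0.35. H4C11 and H4C12 were at -4.35 ± 0.56 and -4.37 ± 0.56, but the H4 genes are near copies that share counts. The lowest protein-coding genes, named after their values were seen, also included the cytokine MIF at -4.48 ± 0.34, which overlaps MIF-AS1, the ubiquitin-like UBL5 at -4.25 ± 0.25 and the complex I subunit NDUFA1 at -4.12 ± 0.32.

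Structured noncoding RNAs had the lowest values. Of 11 genes for 7SL, Y, 7SK, RNase P, RNase MRP and vault RNAs tested, 0 were higher and 11 lower, at a median of -5.53 (-5.70 without input replicate 1), and they summed to 1036 to 1384 CPM in RIP against 47619 to 121858 CPM in input. RN7SL1, the RNA of the signal recognition particle (chromosome 14, 49586580 to 49586878), had 266, 365 and 292 CPM in RIP, against 17131, 46263 and 45589 CPM in input. Input replicate 1 lay below the other inputs and far above all RIP libraries, and the log2 fold change was -6.88 ± 0.61 (edgeR adjusted p = 5.7e-10). RPPH1, the RNA of RNase P, had 88.6, 101 and 60.1 CPM in RIP, against 2708, 4319 and 4487 CPM in input, at -5.53 ± 0.67. RNY4 and RNY1, Y RNAs of Ro particles, were at -6.89 ± 0.73 and -5.88 ± 0.71, and RN7SK, the 7SK RNA that holds the elongation kinase P-TEFb, was at -4.44 ± 0.57. The copies RN7SL4P, RN7SL5P, RN7SKP255 and RN7SKP71, at -7.83 ± 0.80, -7.67 ± 0.74, -6.18 ± 0.99 and -5.87 ± 0.88, share reads with their parent genes and are not separate evidence. By the naming rule these copies, RN7SL1 to RN7SL3, RPPH1 and 2 more 7SK copies were the 10 lowest genes of the comparison. In the lists with 0 members called higher by edgeR, from ribosomal proteins to structured RNAs, 0 were higher at an unadjusted p under 0.05 or by DESeq2 either.

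Small nucleolar RNAs, guides for modification of rRNA, gave 22 higher (6.73%) and 58 lower (17.7%) of 327, against 11.5% and 20.1% of all genes, at a median of -0.39. Here input replicate 1 mattered: these genes took 0.348% of its counts, against 0.235% and 0.162% in the other inputs and 0.0933 to 0.139% in RIP, and without it 27 were higher and 45 lower at a median of -0.10. SCARNA16 had 3.74, 4.97 and 5.18 CPM in RIP, against 18.1, 47.3 and 36.7 CPM in input, without overlap, at -2.88 ± 0.41, and it lies within SNHG20. Their host genes gave 1 higher and 21 lower of 30, at a median of -0.97 (0 and 18 without input replicate 1, median -0.92): SNHG5 had 21.3, 19.8 and 21.9 CPM in RIP, against 76.6, 106 and 122 CPM in input, at -2.27 ± 0.21, and SNHG29 and SNHG20 were at -1.93 ± 0.20 and -1.96 ± 0.20. A list of long noncoding RNAs, most but not all nuclear, gave 2 higher and 3 lower of 11 at a median of -0.50, but 1 higher and 0 lower at -0.02 without input replicate 1. The higher ones were NORAD, an abundant RNA that is mainly cytoplasmic, at 0.60 ± 0.15 and TUG1 at 0.56 ± 0.16, of which NORAD kept its call without input replicate 1. MALAT1, the abundant RNA of nuclear speckles, had 849.6, 776 and 519 CPM in RIP, against 1248, 1542 and 1631 CPM in input, with all RIP values below the inputs, at -1.04 ± 0.45 (edgeR adjusted p = 0.078). JPX, MIR17HG and LINC-PINT were called lower at -0.66 ± 0.21, -0.78 ± 0.25 and -0.68 ± 0.27, and none was called without input replicate 1 (edgeR adjusted p = 0.14, 0.17 and 0.89). The pattern for NEAT1, of paraspeckles, overlapped at -0.10 ± 0.36 and turned sign under DESeq2, total counts and without input replicate 1, among other settings.

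A result that rested on input replicate 1 was MIR3648, a pair of near-identical hairpin genes on chromosome 21. The mature form, printed because these reads set that input apart, is given by RefSeq for MIR3648-2 on GRCh38.p14, chr21:8987026-8987046, plus strand, 81.0% G and C, with the seed (bases 2 to 8) in capitals.
hsa-miR-3648: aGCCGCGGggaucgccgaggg
MIR3648-1 had 610.3, 467 and 2623 CPM in RIP, against 28079, 655 and 1769 CPM in input. Input replicate 1 was far above every other library, RIP replicate 3 was the next highest, and the rest of the groups overlapped. The log2 fold change of -3.04 ± 1.02 (edgeR adjusted p = 0.023) became 0.08 (edgeR adjusted p = 0.96) without input replicate 1. Counts over the hairpin gene do not tell the mature miRNA from other RNA of that locus.

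**Figure D2:**
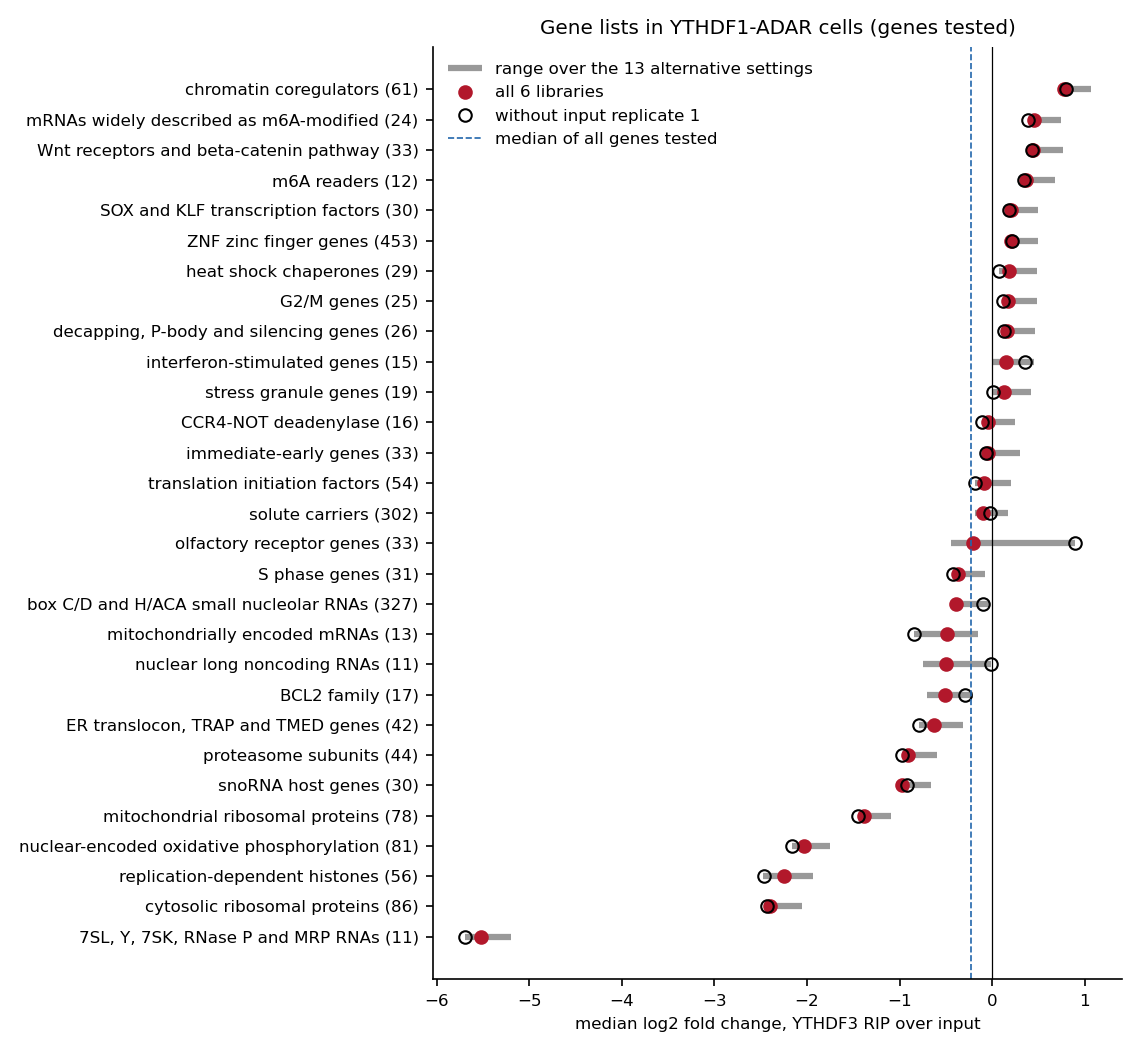
Median log2 fold change of YTHDF3 RIP over input for gene lists with at least 10 genes tested (filled, all 6 libraries; open, without input replicate 1; grey bar, range over 13 alternative settings; dashed line, median of all genes). Chromatin coregulators lie highest at 0.78, ribosomal proteins lie at -2.40, and the list of 7SL, Y, 7SK, RNase P and MRP RNAs lies lowest at -5.53.

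By class of gene, 2912 of 15966 protein-coding genes were higher and 4186 lower (18.2% and 26.2%). Long noncoding RNA genes gave 540 and 1022 of 7995, and processed pseudogenes, copies of mRNAs that share their reads, gave 29 and 641 of 3407. Long protein-coding genes were higher and short ones lower. Protein-coding genes called higher had a median merged exon length of 8077 bases, genes called lower one of 3343 bases and genes not called one of 4872 bases. Over genes up to 1000 bases the median log2 fold change was -0.72, and it was -0.81 at 1000 to 2000 bases, -0.43 to 4000, -0.09 to 6000, 0.11 to 8000, 0.30 to 12000 and 0.48 above 12000 bases. In the shortest class 4.55% were called higher and 42.9% lower, and in the longest class 51.9% were higher and 6.21% lower. Across 15966 genes Spearman's rho of length and log2 fold change was 0.48, and 0.54 over 8920 genes with a mean log2 CPM of at least 4 (0.41 and 0.56 without input replicate 1). Genes are not independent replicates, the length is that of all annotated exons and not of the transcript in these cells, and the part of length in the list results was not tested. The median length was 12378 bases for chromatin coregulators, 6302 for Wnt receptors and effectors and 5457 for ZNF genes. It was 4377 for protein entry into the endoplasmic reticulum and 4313 for the proteasome. Ribosomal proteins had 3159, oxidative phosphorylation 2475 and histones 625.5.

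**Figure D3:**
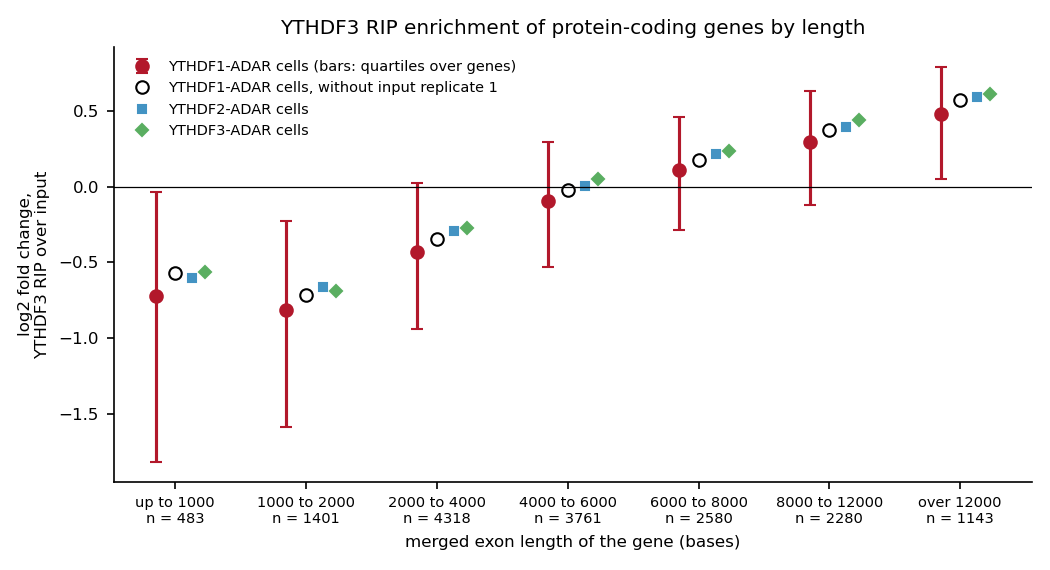
Median log2 fold change of YTHDF3 RIP over input for protein-coding genes in 7 classes of merged exon length, with quartiles over genes for YTHDF1-ADAR cells, the value without input replicate 1 and the same for the other lines. From 1000 bases upward the medians go up with each class in YTHDF1-ADAR cells, to 0.48 above 12000 bases.

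Editing of RNA in YTHDF1-ADAR cells gave another readout in the same cells, from the authors' deposited table. Replicates are pooled there, so no spread can be given. Editing by the fusion cannot be told apart in these values from editing by the cells' own ADAR enzymes. The authors' deposited table holds 7829 genes with a median of 6 edited sites. The site count is given once per gene and not per arm. It may thus draw on reads of the YTHDF3 RIP itself, whose part in the shares below was not tested. Among protein-coding genes with a mean log2 CPM of at least 4, the share called higher in YTHDF3 RIP was 11.4% of 2103 genes without an entry, 14.7% of 1010 genes with 1 site, 22.3% of 1765 with 2 to 5, 33.0% of 2040 with 6 to 20 and 55.8% of 1739 with over 20 sites. The shares called lower were 48.3, 37.8, 29.9, 19.0 and 5.64%. Genes with more sites were also longer and more abundant, with median lengths of 4995 and 7072 bases and median levels of 33.0 and 74.8 CPM in the first and the last class. Within 8000 to 12000 bases, 74.5% of 432 genes with over 20 sites were called higher, against 23.6% of 314 genes without an entry. Within 2000 to 4000 bases the shares were 20.8% of 240 and 2.72% of 552. Levels still differed within these classes, with medians of 91.2 and 35.3 CPM at 8000 to 12000 bases and 44.7 and 32.3 CPM at 2000 to 4000.

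**Figure D4:**
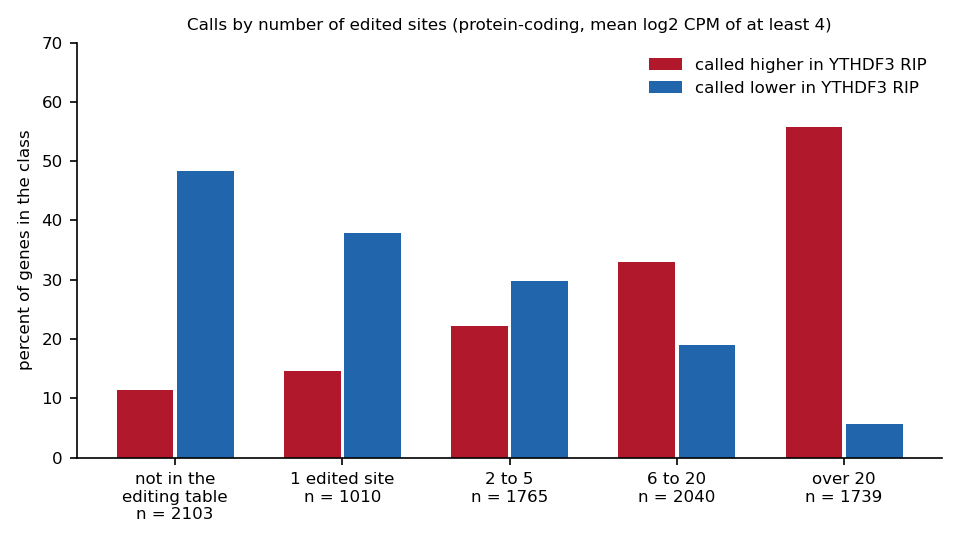
Percent of protein-coding genes with a mean log2 CPM of at least 4 called higher or lower in YTHDF3 RIP, by number of edited sites. Sites are those of YTHDF1-ADAR cells in the authors' deposited table. The higher share goes up from 11.4% of genes without an entry to 55.8% of genes with over 20 sites, and the lower share goes down from 48.3 to 5.64%.

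The level of editing, the authors' score divided by the number of sites, had a median over 7800 genes of 3.18% in YTHDF3 RIP and 2.50% in input, against 3.71% in YTHDF1 RIP and 3.39% in YTHDF2 RIP in the authors' deposited table. It was higher in YTHDF3 RIP than in input for 5912 genes (75.8%) and lower for 1853. Genes called higher in the RIP had a median of 3.94% in RIP and 3.16% in input, genes called lower had 2.10% and 1.63%, and genes not called had 3.18% and 2.46%. By the adjusted p-values in the authors' deposited table, with the limit of 0.05, 88 genes differed in YTHDF3 RIP, 79 of them with more editing, against 128 genes for YTHDF2 RIP and 636 for YTHDF1 RIP. The genes with the most sites were the cytoskeletal linkers EPPK1 with 617 and PLEC with 411, TBC1D16 with 336, the cadherin FAT1 with 332 and PUSL1 with 312. FAT1 was called higher in the RIP, with 469, 417 and 461 CPM in RIP, against 164, 201 and 189 CPM in input, without overlap, at 1.28 ± 0.16, and its editing level in the authors' deposited table was 4.17% in RIP and 4.10% in input. EPPK1 was at 0.91 ± 0.38 (edgeR adjusted p = 0.074), PLEC at 0.75 ± 0.25, TBC1D16 at 0.55 ± 0.17 and PUSL1 at -0.50 ± 0.26 (edgeR adjusted p = 0.15).

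The same RIP in the other lines gave similar lists. These lines have their own inputs, so the comparisons share no library. Of the 3647 genes higher here, 3037 (83.3%) were also called higher in YTHDF2-ADAR cells, which is 62.9% of that line's 4832 (15.2% of genes tested). In YTHDF3-ADAR cells 3075 (84.3%) were also higher, 71.4% of that line's 4309 (13.5%). Of the 6402 genes lower here, 4623 (72.2%) were lower in YTHDF2-ADAR cells, 86.1% of 5370 (16.9%), and 4476 (69.9%) in YTHDF3-ADAR cells, 87.2% of 5132 (16.1%). In all 3 lines 2783 were higher and 3998 lower. Called the other way were 0 of the higher genes in either line, and 5 and 1 of the lower genes in the YTHDF2-ADAR and YTHDF3-ADAR lines. Over 9872 genes with a mean log2 CPM of at least 4, Pearson's r of the log2 fold changes was 0.952 and 0.962, as a description across genes. The list medians lay close too: 0.78, against 0.75 and 0.73, for coregulators, and -2.40, against -2.21 and -2.12, for ribosomal proteins.

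Tested directly, the enrichment in YTHDF1-ADAR cells differed from the mean of the other lines for 3 of 31849 genes (0.00942%), with 2229 genes at an unadjusted p under 0.05. Without input replicate 1 it differed for 0 genes by edgeR, with 1523 at an unadjusted p under 0.05. For YTHDF1, whose reads include the fusion in this line alone, the enrichment was 0.97, with 0.33 for the YTHDF2-ADAR and 0.47 for the YTHDF3-ADAR line, and the difference of 0.56 ± 0.23 did not pass (edgeR adjusted p = 0.68). The median SE of such a difference was 0.21 for genes with a mean log2 CPM of at least 4. Since the genes that passed had differences of 1.35 or more in size, differences several times that SE could go undetected with 3 libraries a group.

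Against the other antibodies, YTHDF3 RIP had more genes called against YTHDF1 RIP than against YTHDF2 RIP in the same cells. These cells express the YTHDF1 fusion, with 529 to 721 CPM of YTHDF1 in input, against 85.6 to 98.5 CPM in the other lines. Differences from YTHDF1 RIP by protein or antibody therefore cannot be told apart from those due to the fusion. RIP libraries were set directly against RIP libraries, so no input entered: 5944 genes (18.7%) were higher and 7143 (22.4%) lower than in YTHDF1 RIP, and 2711 (8.51%) were higher and 3403 (10.7%) lower than in YTHDF2 RIP. UCP2 led both. It had 181, 178 and 163 CPM in YTHDF3 RIP, against 11.8, 9.65 and 15.1 CPM in YTHDF1 RIP and 26.9, 29.6 and 12.9 CPM in YTHDF2 RIP. Its lowest YTHDF3 RIP value was far above every library of the other RIPs, at log2 fold changes of 3.83 ± 0.22 and 2.91 ± 0.21. APOOL, of the mitochondrial cristae complex, was at 3.68 ± 0.19 and 2.54 ± 0.18, and AP1S3, an adaptor subunit of clathrin coats, at 3.53 ± 0.18 and 2.49 ± 0.17. MYADM was at 2.73 ± 0.20 and 2.46 ± 0.20. The 14-3-3 gene YWHAZ had 602, 543 and 744 CPM, against 71.97, 66.8 and 95.4 CPM in YTHDF1 RIP, without overlap, at 3.01 ± 0.20. At the low end against YTHDF1 RIP were TMPRSS9 at -4.79 ± 0.45, the splicing subunit SF3B5 at -4.14 ± 0.27 and the cytochrome oxidase assembly gene COA3 at -3.88 ± 0.27. SF3B5 had 5.93, 5.51 and 3.09 CPM, against 88.01, 75.9 and 93.5 CPM in YTHDF1 RIP, with groups far apart. GEMIN7, at -3.90 ± 0.23, overlaps GEMIN7-AS1. The lowest against YTHDF2 RIP were copies of 5.8S rRNA, which share reads, such as RNA5-8SN4 at -4.51 ± 0.90.

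Lists differed between the RIPs as well, with the same limit for YTHDF1 RIP. ZNF genes were lower than in YTHDF1 RIP for 313 of 453 (22 higher, median -0.82), and higher than in YTHDF2 RIP for 109 (38 lower, median 0.20). Stress granule genes were higher than in YTHDF1 RIP for 15 of 19 (2 lower, median 0.96) and split at 4 and 4 against YTHDF2 RIP. CAPRIN1 had 561, 534 and 486 CPM, against 209, 212 and 291 CPM in YTHDF1 RIP, which did not overlap, at 1.15 ± 0.19. Of the mRNAs described as m6A-modified, 19 of 24 were lower than in YTHDF1 RIP and 1 higher (median -0.99), against 2 lower and 3 higher than in YTHDF2 RIP. Coregulators differed little in the median from YTHDF1 RIP (-0.07, 15 higher and 8 lower) and were above YTHDF2 RIP (0.31, 19 higher and 1 lower). Histones were lower than in either, at medians of -1.18 and -1.05. The mRNA of YTHDF3 itself had 83.9, 74.2 and 91.6 CPM in YTHDF3 RIP, against 223, 198 and 199 CPM in YTHDF1 RIP and 66.3, 66.4 and 58.3 CPM in YTHDF2 RIP. It was below all YTHDF1 RIP values in each library, at -1.31 ± 0.17. YTHDF1 mRNA was lower than in YTHDF1 RIP too, at -1.37 ± 0.19.

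**Figure D5:**
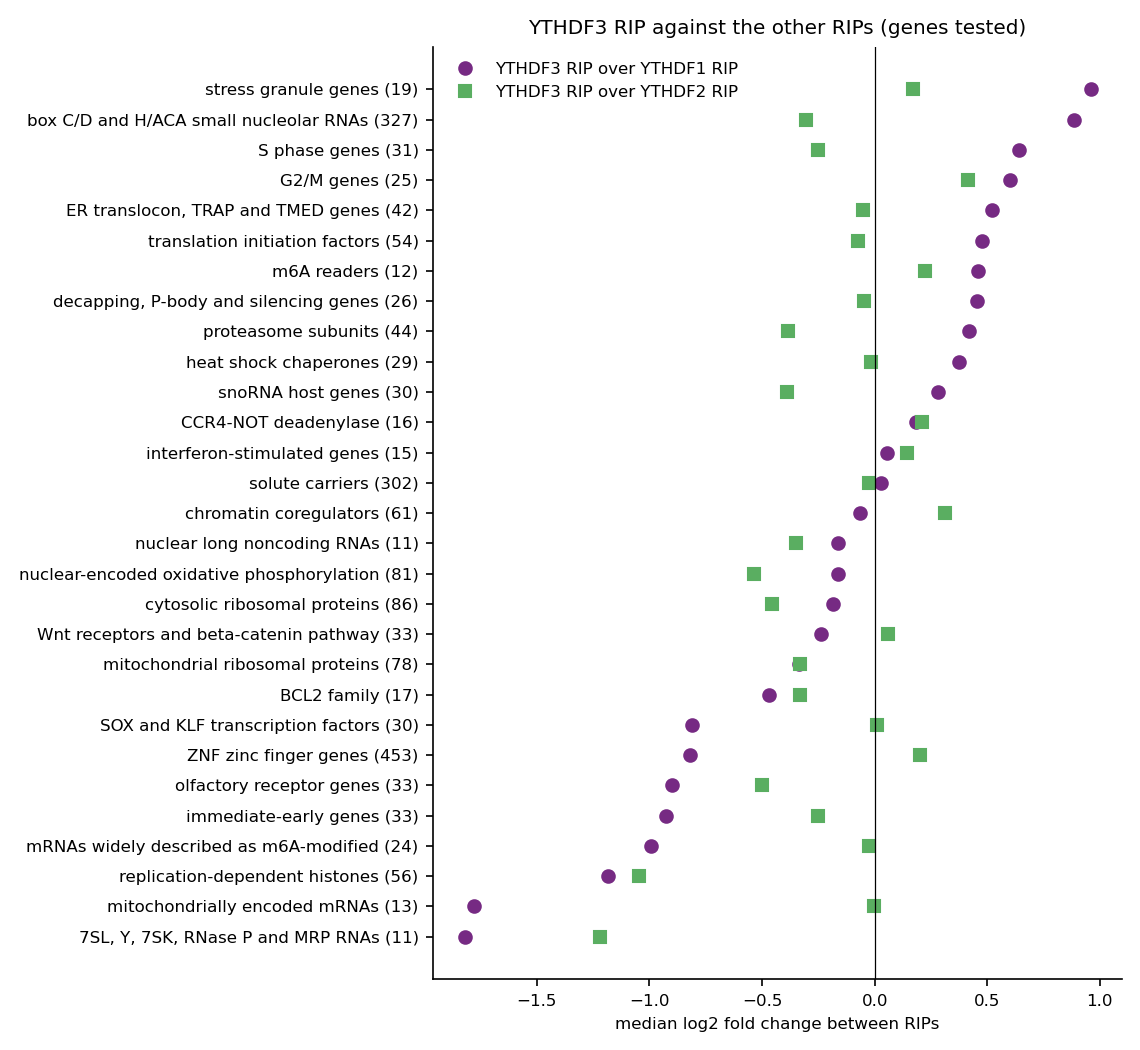
Median log2 fold change of YTHDF3 RIP over YTHDF1 RIP (circles) and over YTHDF2 RIP (squares) in YTHDF1-ADAR cells for gene lists with at least 10 genes tested. Stress granule genes lie at 0.96 and 0.17, ZNF genes at -0.82 and 0.20 and mitochondrially encoded mRNAs at -1.78 and -0.0021.

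The authors' deposited table of fold changes, which pools the lines, gave like directions for these libraries' calls. Pearson's r across 31786 genes with the authors' deposited log2 fold changes for YTHDF3 was 0.906, and their sign was positive for 3643 of the 3647 higher genes and negative for 6383 of the 6402 lower genes. It includes these same libraries and is not separate evidence. Markers of other cells that a culture could hold were low. The 6 blood genes summed to 3.33 to 4.49 CPM in RIP and 9.79 to 11.3 CPM in input, mostly from the near copies HBA1 and HBA2, the 7 fibroblast genes to 26.1 to 32.1 and 23.5 to 27.4 CPM, and the 7 epithelial and hepatocyte genes to 5.33 to 6.61 and 4.59 to 5.18 CPM.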

How the data were processed

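Libraries were grouped by their labels, and the 6 compared here are part of a model of all 36. Per the labels' protocols, RIP was done on cell lysates, input RNA came from part of the lysate, and library preparation followed DNase treatment and rRNA depletion with a directional kit. Per the submitters' processing notes, STAR 2.7.7 (GRCh38/hg38) and featureCounts 2.0.1 were the authors' tools, used per the file headers with Ensembl 102 exons, without strand, and with multimapping and shared reads counted for every gene they touch. The deposited gene table holds these counts. A row for a rat gene (at most 0.000312% of counts) was left out, and 0 count columns were unused. In the authors' deposited DESeq2 table each gene has a mean signal (baseMean), a log2 fold change and an adjusted p-value, with lines pooled as far as its column names say. In the authors' deposited editing table of this line each gene is given by its count of sites, an editing score per arm, the natural log of an odds ratio and an adjusted p-value, with replicates pooled. The editing level is 100 times score over sites, as a percent; odds ratios of these levels matched the deposited natural log values within 1e-06 for 7326 of 7326 genes.

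Genes passing filterByExpr were tested with edgeR 4.0.16 in R 4.3.3 (TMM, estimateDisp, robust glmQLFit, glmQLFTest, 12 groups), with Benjamini-Hochberg adjustment over all 31849 genes and a limit of 0.05; the script was checked on simulated counts. SE is the log2 fold change over the root of F. Depth was 28.4 to 37.5 M counts in RIP and 20.7 to 30.3 M in input, and precision is given as SE. Alternatives were DESeq2 1.42.0, total counts, no filter, a mean of at least 1 CPM, a fit of only the groups compared, a fit without 6 libraries that stand apart (YTHDF1 RIP of the YTHDF2-ADAR and YTHDF3-ADAR lines), a replicate block and leaving out each library. Named genes were those of a fixed list, the 10 highest and 10 lowest with a mean log2 CPM of at least 4, no overlap and the same call without input replicate 1, 3 called members a list in the direction of its median, 5 a direction for each RIP against RIP, and the 5 with most edited sites; other members of lists, the lowest protein-coding genes, MIR3648 and GAS5 were named after their values were seen. The 35 gene lists and the comparison were chosen with earlier results of these data known. Sequences are RefSeq's (GRCh38.p14), matched by symbol. Editing tables of the other lines were not used here. Some genes that the naming rule selects are not reported here.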

Additional observations from a re-analysis of the deposited data

Results flagged for a closer look

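For 3 genes the enrichment in YTHDF3 RIP over input in YTHDF1-ADAR cells differed from the mean of the other lines by a direct test of that difference with edgeR, and the difference did not pass for any of them without input replicate 1.

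SEC14L1, a lipid-binding protein gene, had 212, 154 and 122.5 CPM in RIP, against 111, 98.6 and 119 CPM in input in YTHDF1-ADAR cells. It had 321, 295 and 229 CPM in RIP, against 49.7, 41.7 and 79.00 CPM in input of YTHDF2-ADAR cells, and 198, 199 and 208 CPM in RIP, against 56.9, 50.1 and 76.6 CPM in input of YTHDF3-ADAR cells. The inputs of YTHDF1-ADAR cells were thus above those of both other lines. The difference in log2 enrichment was -1.45 ± 0.23 (edgeR adjusted p = 0.0094), and -1.35 without input replicate 1 (edgeR adjusted p = 0.075). The gene overlaps SNHG20 on the same strand.

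ENSG00000260563, which has no symbol in the tables used, had 0.152, 0.268 and 0.179 CPM in RIP, against 2.22, 0.546 and 1.65 CPM in input in YTHDF1-ADAR cells, with RIP below every input. In YTHDF2-ADAR cells it had 0.611, 0.988 and 0.719 CPM in RIP, against 0.210, 0.0784 and 0.651 CPM in input, and in YTHDF3-ADAR cells 0.274, 0.722 and 0.883 CPM in RIP, against 0.230, 0.256 and 0.359 CPM in input. These levels are low. The difference was -4.09 ± 0.70 (edgeR adjusted p = 0.024), and -3.60 without input replicate 1 (edgeR adjusted p = 0.20).

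GAS5-AS1 had 22.6, 20.6 and 18.7 CPM in RIP, against 19.5, 21.1 and 22.1 CPM in input in YTHDF1-ADAR cells, with overlapping groups. In YTHDF2-ADAR cells it had 9.98, 7.68 and 12.3 CPM in RIP, against 28.6, 24.96 and 24.03 CPM in input, and in YTHDF3-ADAR cells 12.1, 10.8 and 16.7 CPM in RIP, against 34.3, 30.3 and 36.4 CPM in input, without overlap in either. The difference was 1.35 ± 0.25 (edgeR adjusted p = 0.047), and 1.39 without input replicate 1 (edgeR adjusted p = 0.14). The gene lies opposite the snoRNA host gene GAS5, and counts made without strand cannot tell them apart. GAS5 itself had a difference of 1.11 (edgeR adjusted p = 0.24).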

How the results depend on the processing

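Of genes called higher, 3647 became 6153 under total counts, and 3242 to 5673 when each library was left out in turn. Of genes called lower, 6402 became 4101 under total counts, 3791 when only the groups compared were fitted, and 3802 to 6214 when each library was left out. Among the fits with a library left out, the highest count of higher and the lowest count of lower genes came without RIP replicate 2. The difference between lines, with 3 genes, gave 238 without a filter, 0 with only the groups compared, 1 under total counts, 0 without 6 libraries of YTHDF1 RIP from both other lines and 0 to 5 when each library was left out, with 0 without input replicate 1, without YTHDF2-ADAR input replicate 1 and without YTHDF3-ADAR YTHDF3 RIP replicate 2. Against YTHDF2 RIP, 6114 genes became 3623 with only the groups compared and 3973 to 5698 when each library was left out, lowest without YTHDF3 RIP replicate 3. Against YTHDF1 RIP, 13087 genes became 11000 to 13361. The cause of these shifts was not tested. Correlations of same-numbered RIP and input deviations were -0.10, 0.20 and 0.10 over 9685 genes, against -0.22 to 0.19 for differently numbered pairs. With 3 libraries a group these values cannot settle whether replicate numbers pair RIP and input. A replicate block gave 3513 higher, 6107 lower, 2 for the difference between lines, 12658 against YTHDF1 RIP and 5762 against YTHDF2 RIP.

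Signs turned for 7 named genes. METTL3 was at 0.042 with only the groups compared, 0.090 under total counts and -0.19 to 0.11 when each library was left out. WTAP was at 0.016 under DESeq2, 0.080 with at least 1 CPM, 0.15 with only the groups compared, 0.21 under total counts, 0.10 without the 6 libraries and -0.15 to 0.21 when each was left out. FTO was at 0.044 under total counts and -0.25 to 0.051 when each was left out. ALKBH5 was at -0.013 under the replicate block and -0.13 to 0.27 when each was left out. NEAT1 was at 0.031 under DESeq2, 0.10 with at least 1 CPM, 0.16 with only the groups compared, 0.19 under total counts, 0.13 without the 6 libraries and -0.40 to 0.43 when each was left out. MIR3648-1 spanned -3.96 to 0.077 and MIR3648-2 -4.02 to 0.027, highest without input replicate 1. Of 918 values of named genes with a library left out, 855 kept sign and call, 47 lost and 3 gained the call and 13 turned. Directions are relative to the TMM factors, under which the median gene lay at -0.23, so values between -0.23 and 0 lie above the median gene. Depth limits calls of rare RNAs, with 28826 genes not tested.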

Other observations

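Further gene lists were read in the same comparison of YTHDF3 RIP with input, beside 11.5% of all genes called higher and 20.1% lower. Over protein-coding genes the shares were 18.2% and 26.2%. Solute carriers, the transporters of small molecules, gave 31 higher (10.3%) and 53 lower (17.5%) of 302. Without input replicate 1 they gave 26 and 47. Their median of -0.10 with all libraries was 0.01 under DESeq2. The magnesium transporter SLC41A1 was at 0.98 ± 0.12 and the vitamin C transporter SLC23A2 at 1.22 ± 0.12, while the mitochondrial ATP carriers SLC25A5, with 94.3, 86.2 and 64.5 CPM in RIP, against 337, 464 and 521 CPM in input, and SLC25A6 were at -2.43 ± 0.24 and -1.96 ± 0.25. The pair of ATP carriers are close paralogs, so their counts can be shared. Interferon-stimulated genes gave 1 higher and 3 lower of 15, at a median of 0.15 (2 and 2 without input replicate 1, median 0.35). IFIT5 had 19.4, 16.99 and 18.8 CPM in RIP, against 7.19, 8.65 and 10.2 CPM in input, without overlap, at 1.08 ± 0.16, and the lower ones were IFI6 at -2.31 ± 0.32, ISG15 at -1.03 ± 0.22 and IRF1 at -0.64 ± 0.17. Of 33 olfactory receptor genes tested, 0 were called either way by edgeR and 0 by DESeq2, 0 were higher and 2 lower at an unadjusted p under 0.05, and the median was -0.21 with all libraries and 0.90 without input replicate 1.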
